A study of Mus musculus with 22 samples.

Results

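Matrix metalloproteinases (MMPs) are zinc-dependent enzymes that cut collagens and other proteins of the extracellular matrix, and the tissue inhibitors of metalloproteinases (TIMPs) bind their active sites. Most MMPs are made as inactive proenzymes, so a transcript level does not give an activity. In the pressure-loaded heart their balance is known for its part in matrix turnover, fibrosis and widening of the chamber. The 9 genes described here were chosen by name and not by any measured value: the proteases Mmp2, Mmp3, Mmp9, Mmp14 and Mmp15, and the inhibitors Timp1, Timp2, Timp3 and Timp4. All 9 were found among the 30735 genes of the deposited tables.

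Transcripts were measured in 22 left ventricular libraries of FVB mice, labelled as 3 to 5 months old. The mice carried a transgene for VCP, valosin-containing protein (VCP TG), or were wild type (WT), and had transverse aortic constriction (TAC), which narrows the aortic arch and loads the left ventricle with pressure, or a sham operation. There were 3 VCP TG and 4 WT libraries at 2 weeks after TAC, 4 VCP TG and 4 WT libraries at 2 weeks after sham surgery, and 3 VCP TG and 4 WT libraries at 5 weeks after TAC. A sham group of 5 weeks was not analysed here. The sources used here do not give the promoter of the transgene. The labels name no animal for a library, and each p-value therefore rests on the spread between libraries, which may be technical.

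Values are TPM, transcripts scaled to a constant sum per library, as the authors deposited them, and the read depth behind them is unknown. Differences are log2 fold changes of TPM + 1 with their standard errors, a scale on which the change of a low gene is understated. Adjusted p-values are from limma, two-sided, by the Benjamini-Hochberg method across every gene of a fit, at a threshold of 0.05. The 6 cardiomyocyte markers were above 0 in every library and summed to 12665 to 26813 TPM. Mitochondrially encoded genes took 27.9% to 72.9% of TPM, the most in VCP TG sham replicate 4. Atrial markers, 6 genes, summed to 1724 to 10591 TPM in 4 libraries (VCP TG sham replicates 3 and 4, VCP TG 2 weeks TAC replicate 2, and replicate 1 labelled WT 2 weeks TAC) and to 15.2 to 559.7 TPM in the other 18. Vcp, rescaled to nuclear protein-coding genes, lay nearer to the other genotype in 5 libraries: 345 in replicate 1 labelled WT 2 weeks TAC, 334 and 354 in those labelled WT 5 weeks TAC replicates 2 and 3, 114 in that labelled VCP TG 5 weeks TAC replicate 3, and 215 in that labelled VCP TG sham replicate 1. The other 8 VCP TG libraries held 259 to 512 and the other 9 WT libraries 144 to 204. Every direction between the genotypes follows the labels.

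Among the 9 genes, the transcripts of the 4 inhibitors outweighed those of the 5 proteases in every library, and 1 gene made up most of them. Other MMP genes, such as Mmp12, were not in these sums. Timp3, whose protein binds to the matrix and inhibits ADAM proteases as well as MMPs, ranked highest of the 9 genes in 22 of 22 libraries, at 30.6 to 329 TPM. It took 70.7% to 90.7% of the summed TPM of the 4 inhibitors. The gene (ENSMUSG00000020044) spans chromosome 10 from 86300372 to 86349506 on the plus strand of GRCm38.

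Timp2 (ENSMUSG00000017466, chromosome 11, 118301069 to 118355740, minus strand), which both inhibits MMPs and helps MMP14 to activate pro-MMP2, ranked second in 17 of the 22 libraries, at 9.76 to 42.8 TPM. Mmp2 and Mmp15 shared the next places. Mmp2, the gelatinase that fibroblasts make (ENSMUSG00000031740, chromosome 8, 92827291 to 92853420, plus strand), lay at 5.49 to 32.0 TPM. Mmp15, a membrane-type protease (ENSMUSG00000031790, chromosome 8, 95352268 to 95375080, plus strand), lay at 4.48 to 24.2 TPM. Together they held 80.5% to 92.7% of the summed TPM of the 5 proteases, and in each of the 6 groups their levels overlapped.

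A lower tier held Mmp14, Timp1 and Timp4, with means of 2.97, 3.02 and 3.21 TPM over the 22 libraries. Mmp14, the membrane-type collagenase that activates pro-MMP2 (ENSMUSG00000000957, chromosome 14, 54431612 to 54445364, plus strand), lay at 1.12 to 6.25 TPM. Timp1, the inhibitor most known to be induced by cytokines and injury (ENSMUSG00000001131, chromosome X, 20870166 to 20874735, plus strand), lay at 0.429 to 10.01 TPM, so that its highest value was 23.3 times its lowest. Timp4, the inhibitor with the most restricted expression, found chiefly in heart and a few other tissues (ENSMUSG00000030317, chromosome 6, 115241892 to 115252205, minus strand), lay at 0.466 to 9.30 TPM, a ratio of 19.97.

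Mmp9 and Mmp3 were near the limit of what could be read. Mmp9, the gelatinase of neutrophils and macrophages (ENSMUSG00000017737, chromosome 2, 164940780 to 164955850, plus strand), had a mean of 0.594 TPM and reached 1 TPM in 3 libraries. Mmp3, stromelysin 1, which cuts many matrix proteins and activates other MMPs (ENSMUSG00000043613, chromosome 9, 7445822 to 7455975, plus strand), was listed at 0 in 2 libraries and never exceeded 0.746 TPM. As a gauge, 1346 olfactory and vomeronasal receptor genes, which the ventricle is not thought to use, had mean levels of 0.0450 to 0.841 TPM in a library. Mmp9 lay above that mean in 18 of 22 libraries and Mmp3 in 16 of 22. Mmp3 lay at 0.285 to 0.536 TPM in VCP TG and 0.112 to 0.346 TPM in WT at 2 weeks TAC, and at 0 to 0.413 TPM in VCP TG sham and 0 to 0.412 TPM in WT sham. It was filtered out of the fits.

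**Figure D1:**
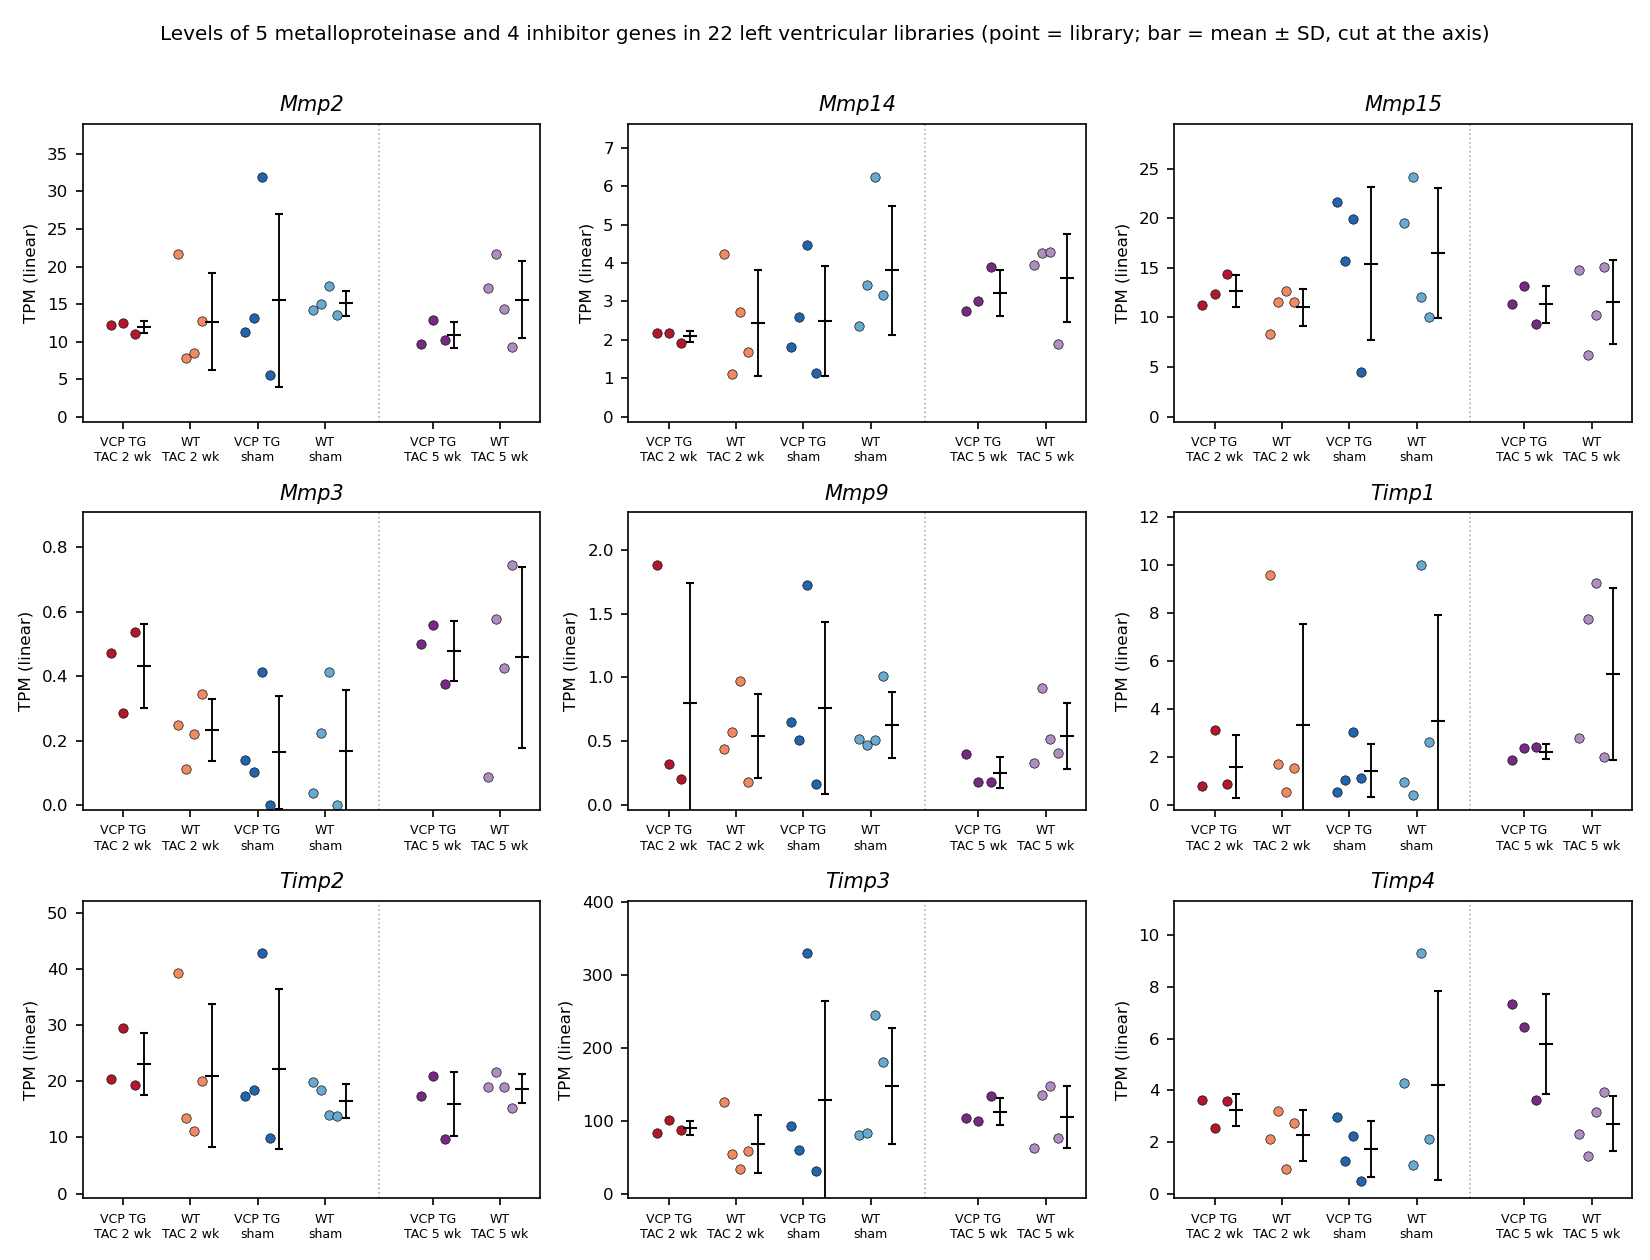
TPM (linear axes) of the 5 protease and 4 inhibitor genes, 1 panel each, in the 6 groups; each point is a library and each bar a mean ± SD, cut at the axis, with the 5-week groups right of the dotted line. Timp3 reaches 329 TPM in VCP TG sham replicate 3, and VCP TG and WT of the same surgery and time overlap in every panel.

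The values of 3 libraries set most of these extremes. VCP TG sham replicate 4, the library richest in mitochondrial transcripts, held the lowest value of 6 genes (Mmp2, Mmp3, Mmp9, Mmp15, Timp3 and Timp4; Mmp3 was also 0 in WT sham replicate 4). VCP TG sham replicate 3 held the highest value of Mmp2, Timp2 and Timp3, and WT sham replicate 3 that of Mmp14, Timp1 and Timp4. These extremes are of TPM and depend in part on the scaling. Rescaled to nuclear protein-coding genes, the lowest Mmp9 (0.485) stood in VCP TG 2 weeks TAC. The lowest Timp3 (105) and the highest Timp2 (114) were then in WT 2 weeks TAC. The lowest Mmp15 (16.8) and the highest Timp1 (30.7) were in WT 5 weeks TAC. In bulk tissue, fewer cells of a type and less RNA per cell cannot be told apart.

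The proximal promoters of 3 genes are shown because their levels spread most or sat lowest: Timp1 and Timp4, the widest in range, and Mmp3, the one listed at 0. Each is the 250 bases before the annotated start, from RefSeq on GRCm38.p6, and capitals mark matches on either strand to 4 motifs. The AP-1 site was searched as TGANTCA. The letters of the GC box were GGGCGG. For the TATA box they were TATAAA, and for the ETS site GGAAGT. No matches of different motifs overlap in these windows.
Timp1, chrX:20869916-20870165, plus strand: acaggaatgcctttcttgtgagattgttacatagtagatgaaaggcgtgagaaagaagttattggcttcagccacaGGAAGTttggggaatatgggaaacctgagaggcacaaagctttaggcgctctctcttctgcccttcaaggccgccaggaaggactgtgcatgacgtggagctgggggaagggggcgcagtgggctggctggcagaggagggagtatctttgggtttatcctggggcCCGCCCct
Timp4, chr6:115252206-115252455, minus strand: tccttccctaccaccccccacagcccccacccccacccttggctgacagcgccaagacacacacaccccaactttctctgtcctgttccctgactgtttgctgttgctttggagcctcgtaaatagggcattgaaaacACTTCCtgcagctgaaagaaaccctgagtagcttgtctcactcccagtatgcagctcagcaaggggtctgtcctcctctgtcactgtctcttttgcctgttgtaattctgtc
Mmp3, chr9:7445572-7445821, plus strand: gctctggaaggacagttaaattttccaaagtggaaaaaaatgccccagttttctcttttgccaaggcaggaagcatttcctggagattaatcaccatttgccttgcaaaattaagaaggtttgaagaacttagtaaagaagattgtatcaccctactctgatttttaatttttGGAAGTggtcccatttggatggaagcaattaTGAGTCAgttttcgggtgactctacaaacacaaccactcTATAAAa

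The Mmp3 window held a TATA box 7 bases before the start, an AP-1 site 46 bases before it and an ETS site at 77. The Timp1 window held a GC box 8 bases before the start and an ETS site at 174, and the Timp4 window an ETS site at 112 alone. Of the 7 genes matched in the promoter table, AP-1 and the TATA box were found in 1 each, the GC box in 5 and the ETS site in 3. Among all 32851 promoters of the same length the shares were 6.75% for AP-1, 12.4% for the TATA box, 32.7% for the GC box and 19.7% for the ETS site. A match is a string of letters and does not show that a factor binds there.

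The effect of the transgene under load was first asked at 2 weeks after TAC, VCP TG (3 libraries) against WT (4 libraries). None of the 8 genes that could be tested passed, and none parted the groups. Of the 8, 6 were above 0, against 73.2% of all genes, and with quantile normalization 4 of 8, against 42.8%. Timp3 held 82.6, 101 and 87.4 TPM in VCP TG hearts, against 126, 54.3, 33.8 and 58.8 TPM in WT hearts. The 3 VCP TG values lay above 3 of the 4 WT values, and the highest value of both groups was that of the library labelled WT replicate 1. The log2 difference was 0.56 ± 0.66 (limma adjusted p = 0.994), and without the libraries whose Vcp goes against the label, that one among them, 0.90 ± 0.71 (adjusted p = 0.929).

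The other inhibitors differed by less. Timp4 averaged 3.25 ± 0.614 TPM in VCP TG and 2.25 ± 0.979 in WT (SD; 0.43 ± 0.44). Timp2 averaged 23.1 ± 5.56 TPM in VCP TG and 20.98 ± 12.7 in WT (0.27 ± 0.41). Timp1 averaged 1.61 ± 1.33 TPM in VCP TG and 3.35 ± 4.19 in WT, where the library labelled replicate 1 held 9.58 TPM and the other 3 held 0.533 to 1.70 (-0.43 ± 0.72).

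The proteases were close between the genotypes at 2 weeks. Mmp2 held 12.3, 12.5 and 11.02 TPM in VCP TG and 21.7, 7.80, 8.48 and 12.7 TPM in WT (0.02 ± 0.40, with a 95% interval of -0.81 to 0.86). The VCP TG values thus lay inside the spread of the WT values. Mmp15 averaged 12.7 ± 1.59 TPM in VCP TG and 11.03 ± 1.84 in WT (0.19 ± 0.39). Mmp14 averaged 2.09 ± 0.151 in VCP TG and 2.44 ± 1.37 in WT (-0.07 ± 0.34). Mmp9 stood at 0.13 ± 0.34.

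By limma 0 of the 8 genes passed, and 0 had an unadjusted p under 0.05, where 14 of 15540 genes (0.0901%) passed and 1488 (9.58%) had such a p. The groups overlapped in all 8, while 21.8% of all genes tested parted them. The median of the 8 log2 differences was 0.16, as was that of all genes. Other scalings moved the median of all genes, to -0.05 by quantile normalization and to -0.08 when rescaled to nuclear protein-coding genes, and that of the measured members to -0.06 and -0.10. The mean level of the receptor genes was higher in each VCP TG library (0.311 to 0.841 TPM) than in each WT library (0.107 to 0.200 TPM), and its part in the differences was not tested.

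**Figure D2:**
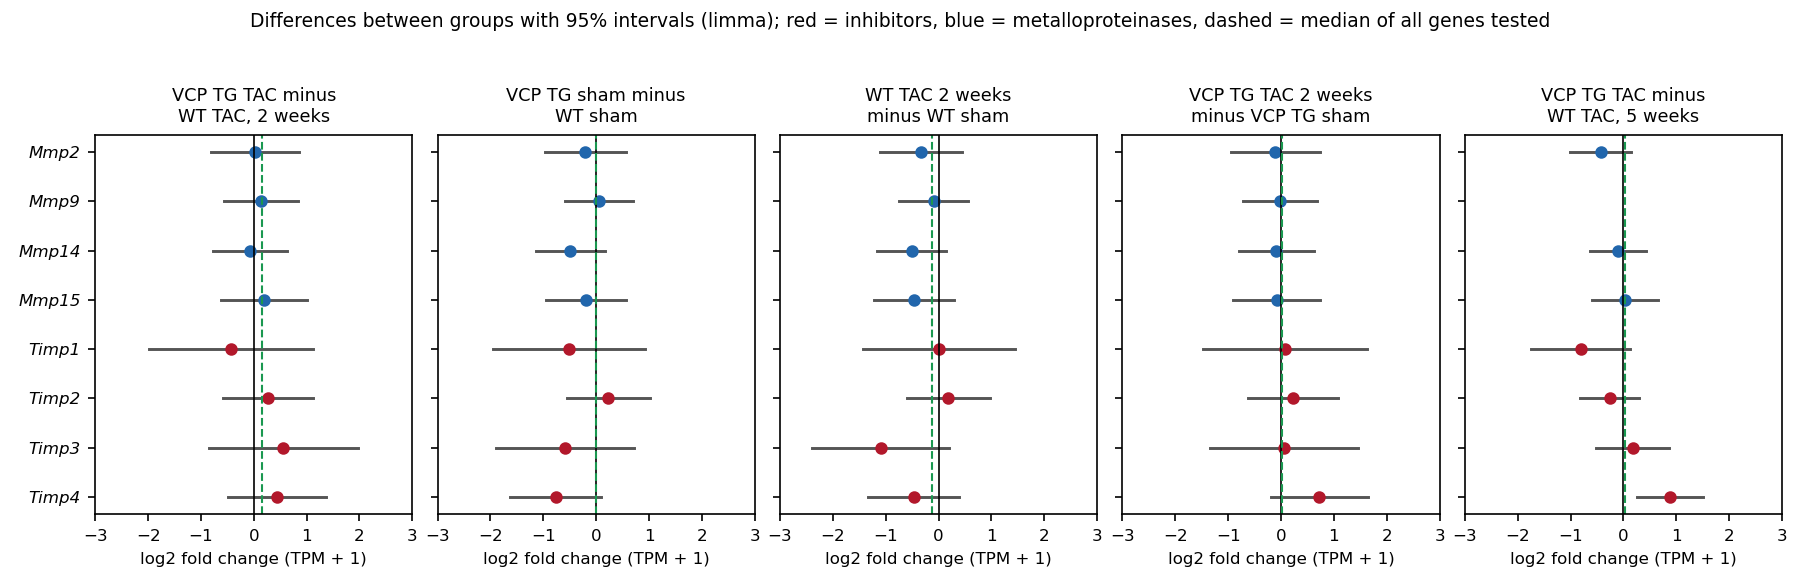
Log2 fold changes of TPM + 1 (x axis) with 95% intervals for the tested genes (y axis) in 5 comparisons, VCP TG minus WT or TAC minus sham; red points are inhibitors, blue points proteases, and the dashed line is the median of all genes tested. Every interval but that of Timp4 at 5 weeks (0.26 to 1.501) includes 0.

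At 5 weeks after TAC, Timp4 was the gene that came nearest to a difference between VCP TG (3 libraries) and WT (4 libraries). It held 7.33, 6.46 and 3.62 TPM in VCP TG hearts, against 2.30, 1.44, 3.16 and 3.93 TPM in WT hearts. The libraries labelled VCP TG replicates 1 and 2 lay above all WT libraries, and replicate 3, whose Vcp lay with WT, lay among them. The log2 difference was 0.88 ± 0.28, with an unadjusted p of 0.0102 and a limma adjusted p of 0.904.

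Of the 7 genes tested, 0 passed and 1 had an unadjusted p under 0.05, while 1 of 13986 genes (0.00715%) passed and 628 (4.49%) had such a p. Without the 3 libraries whose Vcp goes against the label, only VCP TG replicates 1 and 2 and WT replicates 1 and 4 remained. The 3 left out are also the 3 of this comparison rich in neutrophil transcripts. The Timp4 difference was then 0.96 (limma adjusted p = 0.825). With 1 library left out at a time it was 0.69 to 1.13, and the adjusted p over all alternatives was 0.462 to 1.00.

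Timp1 and Mmp2 pointed the other way at 5 weeks, and neither passed. Timp1 held 1.89, 2.38 and 2.43 TPM in VCP TG and 2.79, 7.76, 9.26 and 2.01 TPM in WT (-0.81 ± 0.41, adjusted p = 0.904). The 2 high WT values came from the libraries labelled replicates 2 and 3, and without the libraries whose Vcp goes against the label the difference was -0.11. Mmp2 held 9.66, 12.8 and 10.2 TPM in VCP TG and 17.2, 21.6, 14.4 and 9.25 TPM in WT (-0.43 ± 0.26), and without those libraries it was -0.17.

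The remaining genes were nearer to each other at 5 weeks. Timp3 averaged 112 ± 18.8 TPM in VCP TG and 105 ± 42.5 in WT (0.18 ± 0.31). Timp2 averaged 16.0 ± 5.69 TPM in VCP TG and 18.7 ± 2.62 in WT (-0.26 ± 0.25). Mmp15 averaged 11.3 ± 1.89 TPM in VCP TG and 11.6 ± 4.21 in WT (0.03 ± 0.28). Mmp14 averaged 3.21 ± 0.599 in VCP TG and 3.61 ± 1.15 in WT (-0.10 ± 0.24). The groups overlapped in all 7 genes tested, while 5.13% of all genes parted them. Mmp9 (0.254 ± 0.124 TPM in VCP TG, 0.544 ± 0.259 in WT) and Mmp3 (0.478 ± 0.0930 in VCP TG, 0.459 ± 0.281 in WT) were under the filter of 1 TPM in 3 libraries.

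The change of the genotype difference between the time points, 5 weeks minus 2 weeks, was tested in 1 fit of all 22 libraries. Of 8 genes 0 passed and 0 had an unadjusted p under 0.05, where 1 of 16347 genes (0.00612%) passed and 323 (1.98%) had such a p. Of the 8, 7 were below 0, against 73.4% of all genes, and with quantile normalization 6 of 8, against 48.0%. Timp2 (-0.53 ± 0.54), Mmp2 (-0.46 ± 0.54) and Timp4 (0.45 ± 0.59) had the largest values (limma adjusted p of 1.00 for each). The time points stand in separate tables, so a change of level with time and a difference between tables cannot be told apart, and the levels of the 9 genes at 2 and 5 weeks are set side by side without a test.

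The transgene without load was compared in sham hearts between VCP TG and WT (4 libraries each). None of the 8 genes passed, and 0 had an unadjusted p under 0.05, as 0 of 15540 genes (0%) passed and 616 (3.96%) had such a p. Timp4 held 2.96, 1.25, 2.23 and 0.466 TPM in VCP TG and 4.27, 1.09, 9.30 and 2.10 TPM in WT (-0.76 ± 0.41, limma adjusted p = 1). Timp3 held 93.2, 59.0, 329 and 30.6 TPM in VCP TG and 80.5, 83.2, 245 and 180 TPM in WT (-0.59 ± 0.61). The highest and the lowest Timp3 TPM of the series thus stood in the same group, VCP TG sham. Rescaled to nuclear protein-coding genes, the highest was still there (751). The lowest was then in WT 2 weeks TAC (105), against a lowest of 130 in VCP TG sham.

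The proteases and the other inhibitors overlapped between sham groups as well. Mmp2 held 11.3, 13.1, 32.0 and 5.49 TPM in VCP TG, while the 4 WT libraries kept between 13.6 and 17.5 TPM (-0.21 ± 0.37). Mmp15 averaged 15.4 ± 7.72 TPM in VCP TG and 16.5 ± 6.56 in WT (-0.20 ± 0.36). Mmp14 averaged 2.497 ± 1.44 in VCP TG and 3.81 ± 1.69 in WT (-0.49 ± 0.31). The labels give replicate numbers but do not say that they pair the libraries. Matched by number, Mmp14 was lower in VCP TG in 4 of 4 pairs, as were 4.57% of all genes. With the replicate block the Mmp14 difference was -0.49 ± 0.29 (limma adjusted p = 0.946). The other 7 genes differed in direction between pairs. Timp1 stood at -0.51 ± 0.67, Timp2 at 0.23 ± 0.38 and Mmp9 at 0.06 ± 0.31. Of the 8 genes 6 were below 0, against 51.6% of all genes, and with quantile normalization 7 of 8, against 50.5%. The groups overlapped in all 8, while 1.04% of all genes parted them.

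The response of WT hearts to load, 2 weeks TAC against sham (4 libraries each), gave its largest value for Timp3. It held 126, 54.3, 33.8 and 58.8 TPM after TAC, against 80.5, 83.2, 245 and 180 TPM after sham surgery. The library labelled TAC replicate 1 lay among the sham values and the other 3 TAC libraries below all of them. The difference was -1.10 ± 0.61 (limma adjusted p = 0.4998), so it did not pass.

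The estimate turned on which WT libraries were compared, and the call also on which VCP TG libraries shared the fit. Without replicate 1 labelled WT 2 weeks TAC and the other 3 libraries rich in atrial transcripts, Timp3 passed at -1.44 ± 0.38 (limma adjusted p = 0.0430), where 1 of 7 members and 1202 of 14618 genes (8.22%) were called. In the 4-group fit without the libraries whose Vcp goes against the label, which leaves out the same WT library, it stood at -1.44 ± 0.67 (adjusted p = 0.569). Both fits compare the same WT libraries and differ in the VCP TG libraries that share the estimate of the spread. With the WT groups fitted alone and every WT library kept, Timp3 stood at -1.10 ± 0.46 (limma adjusted p = 0.167). In that fit 964 of 13709 genes (7.03%) were called. Without the libraries rich in neutrophil transcripts, which takes WT sham replicates 3 and 4 out, it was -0.42 ± 0.45 (adjusted p = 0.664). Over all alternatives the adjusted p ran from 0.0430 to 0.807.

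The other genes of WT hearts gave smaller values, and none passed. Mmp14 averaged 2.44 ± 1.37 TPM after TAC and 3.81 ± 1.69 after sham surgery (-0.51 ± 0.31). Mmp15 held 8.38, 11.6, 12.6 and 11.5 TPM after TAC and 19.5, 24.2, 12.1 and 10.1 TPM after sham surgery (-0.47 ± 0.36). The first 2 sham values lay above all TAC values and the other 2 among them. Timp4 stood at -0.47 ± 0.41, Mmp2 at -0.33 ± 0.37, Timp2 at 0.18 ± 0.38, Mmp9 at -0.09 ± 0.31 and Timp1 at 0.00046 ± 0.67.

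In WT hearts 0 of 8 genes passed by limma and 0 had an unadjusted p under 0.05, where 0 of 15540 genes (0%) passed and 1773 (11.4%) had such a p. The groups overlapped in all 8, while 16.2% of all genes parted them. The median of the 8 was -0.40, against -0.13 for all genes, and 6 of 8 were below 0, against 64.2% of all genes. With quantile normalization 6 of 8 were below 0, against 50.7%.

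In VCP TG hearts, 2 weeks TAC (3 libraries) against sham (4 libraries), Timp4 again had the largest value. It held 3.64, 2.54 and 3.57 TPM after TAC and 2.96, 1.25, 2.23 and 0.466 TPM after sham surgery (0.73 ± 0.44, limma adjusted p = 0.870). The first and the third TAC values lay above all sham values, and the second below the highest of them. Of the others, Timp2 (0.22 ± 0.41) came next, and Mmp2 (-0.11 ± 0.40), Mmp14 (-0.09 ± 0.34), Mmp15 (-0.09 ± 0.39), Timp1 (0.08 ± 0.72), Timp3 (0.05 ± 0.66) and Mmp9 (-0.01 ± 0.34) were near 0.

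None of the 8 passed in VCP TG hearts and 0 had an unadjusted p under 0.05, where 120 of 15540 genes (0.772%) passed and 1363 (8.77%) had such a p. Of the 8, 4 were above 0, against 52.4% of all genes, and with quantile normalization 2 of 8, against 41.7%. The groups overlapped in all 8, while 4.02% of all genes parted them. The spread was wide in sham and narrow after TAC for most genes: Mmp2 had an SD of 0.796 TPM after TAC and 11.5 after sham surgery, and Timp3 of 9.44 after TAC and 137 after sham surgery.

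The difference between these responses, VCP TG minus WT, was tested as an interaction. Timp4 had the largest value, 1.20 ± 0.60, and Timp3 the next, 1.15 ± 0.89 (limma adjusted p = 0.872 and 0.874). Their 95% intervals were -0.06 to 2.46 for Timp4 and -0.77 to 3.07 for Timp3. Of 8 genes 0 passed and 0 had an unadjusted p under 0.05, where 1 of 15540 genes (0.00644%) passed and 779 (5.01%) had such a p. All 8 were above 0, as were 70.6% of all genes, but with quantile normalization 4 of 8 were, against 48.9%. Their median was 0.31, against 0.22 for all genes, and 0.05, against -0.01, with quantile normalization.

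The sum of the 4 inhibitors over the sum of the 5 proteases, a ratio of TPM, lay at 1.86 to 7.57 over the 22 libraries with a mean of 4.31. The ratio leaves out the other MMP genes, such as Mmp12. This ratio averaged 4.24 ± 0.588 in VCP TG and 3.37 ± 1.31 in WT at 2 weeks TAC. In sham hearts it averaged 3.97 ± 1.73 in VCP TG and 4.99 ± 2.74 in WT. At 5 weeks TAC it averaged 5.29 ± 0.951 in VCP TG and 4.22 ± 1.59 in WT.

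VCP TG and WT overlapped in the ratio in each of these comparisons, and no test was run. In WT sham it was 2.88, 2.38, 7.57 and 7.15, and the 2 high values were those of replicates 3 and 4. Timp3 carried this split: without it the ratio of the 3 other inhibitors to the proteases was 0.683, 0.460, 0.907 and 0.667 in the same libraries. Over all 22 libraries that ratio lay at 0.460 to 1.45. The share of Timp3 in the inhibitor sum was 70.7% to 74.8% in WT 2 weeks TAC and 76.2% to 90.7% in WT sham, without overlap. In level, 16.2% of all genes tested parted these groups, and Timp3 itself did not.

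**Figure D3:**
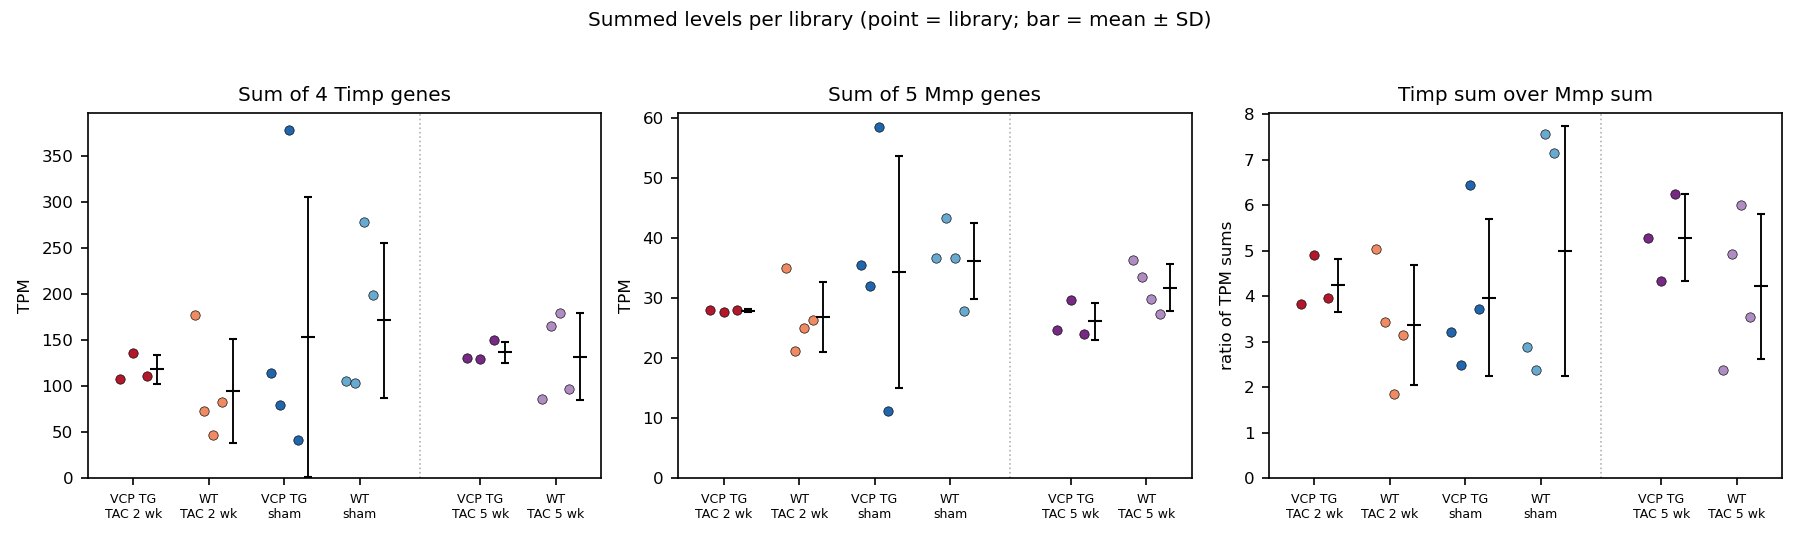
Summed TPM of the 4 inhibitors and of the 5 proteases, and the ratio of the sums (y axes, linear), in the 6 groups; each point is a library and each bar a mean ± SD. WT sham falls into a pair of libraries near 2.38 to 2.88 and a pair near 7.15 to 7.57 in the ratio.

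Markers of other cell types moved with several of these values. The 6 neutrophil markers summed to 72.6 and 41.9 TPM in WT sham replicates 3 and 4, and to 7.59 and 6.57 in replicates 1 and 2. At 5 weeks TAC they summed to 20.9 TPM in the library labelled VCP TG replicate 3 and to 32.9 and 15.2 in those labelled WT replicates 2 and 3, and in VCP TG sham replicate 3 to 16.6. In the other 16 libraries they summed to 2.47 to 7.71 TPM. Of the 6, Ly6g and Retnlg had means under 1 TPM and none was at 0 in every library. S100a8 and S100a9 made up most of the high sums, at 33.7 and 26.7 TPM in WT sham replicate 3. Retnlg was also high in WT sham replicates 3 and 4 (6.77 and 3.14 TPM, against 0.305 and 0.295 in replicates 1 and 2). Mpo (1.61 and 0.862, against 1.21 and 1.30) and Csf3r (3.71 and 1.45, against 0.986 and 2.23) overlapped between these pairs. Ly6g was 0 in replicates 1, 3 and 4.

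In these 6 libraries Timp3 lay at 134 to 329 TPM, above each of the other 16 (30.6 to 126 TPM). The 6 were picked by the neutrophil markers after the data were seen, and they are not a group of the study, so no test was made. Timp1 was high in 3 of the 6, at 7.76 to 10.01 TPM, and also in replicate 1 labelled WT 2 weeks TAC (9.58 TPM), where the neutrophil markers summed to 6.24. That library instead held the highest sums of fibroblast markers (747 TPM) and macrophage markers (128 TPM) of the series. The part of these cells in the levels was not tested.

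**Figure D4:**
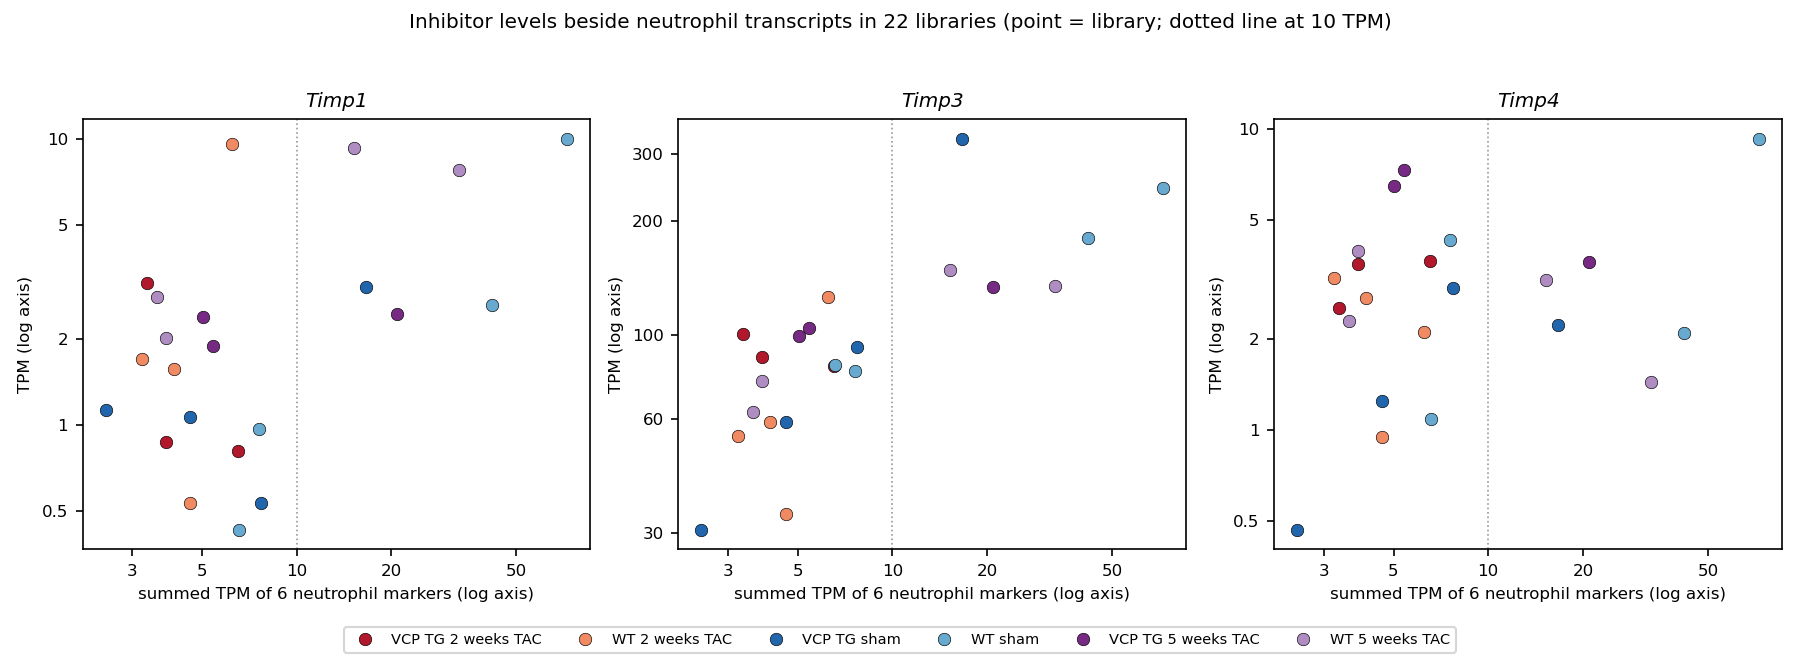
TPM of Timp1, Timp3 and Timp4 (y, log axes) against the summed TPM of 6 neutrophil markers (x, log axes) in 22 libraries, coloured by group; the dotted line is at 10 TPM. All 6 libraries right of the line hold 134 TPM of Timp3 or more, and Timp4 shows both high and low values there.

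The fibroblast markers, 6 genes, summed to 355 to 533 TPM in VCP TG and 306 to 747 TPM in WT at 2 weeks TAC, to 392 to 640 TPM in VCP TG and 281 to 482 TPM in WT after sham surgery, and to 179 to 438 TPM in VCP TG and 227 to 613 TPM in WT at 5 weeks TAC. None of the 6 passed in any comparison. After the group means were taken off, Mmp2 and Timp2 followed the fibroblast receptor Pdgfra across the 15 libraries of 2 weeks with r = 0.957 and 0.912, and each other with r = 0.924. Over the 7 libraries of 5 weeks these values were 0.846, 0.491 and 0.543. Timp3 (0.844 at 2 weeks, 0.225 at 5 weeks) and Mmp14 (0.785 and 0.850) also went with Pdgfra. The other tested members gave 0.290 to 0.597 with it at 2 weeks. With the marker Col1a1, Mmp2 gave 0.787 and 0.462, and Timp2 gave 0.871 and 0.797. Timp3 (0.558 at 2 weeks, -0.510 at 5 weeks) and Mmp14 (0.658 and -0.181) differed in sign with Col1a1 between the time points. These correlations describe the libraries, which also share depth and tissue makeup.

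The gene whose pattern was most like each member was sought among 7703 genes with a mean of at least 5 TPM, by the correlation of log2(TPM + 1) within groups over the 15 libraries of 2 weeks. For Mmp2 it was Loxl1 (r = 0.976), a lysyl oxidase that crosslinks elastin, and over the 7 libraries of 5 weeks the value was 0.898. For Timp2 the nearest were Sod3 (0.959), the extracellular superoxide dismutase, Col1a2 (0.956), a chain of type I collagen, and Fbln1 (0.954), a matrix glycoprotein, with 0.856, 0.834 and 0.792 at 5 weeks. For Mmp14 it was Cnn3 (0.916), an actin-binding calponin, with 0.933 at 5 weeks, followed by Nupr1 (0.916), a stress-induced transcriptional regulator, with 0.165, and the procollagen peptidase Adamts2 (0.915), with 0.582.

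For Timp3 the nearest was Qsox1 (0.981), a sulfhydryl oxidase, with 0.626, and for Timp1 it was S100a10 (0.912), an annexin A2 partner, with 0.444, followed by the chemokine Ccl6 (0.892) and the protease inhibitor Serpina3n (0.884). For Mmp15 it was Pde4a (0.987), a cyclic AMP phosphodiesterase, with 0.560, and for Timp4 it was Sult1a1 (0.934), a sulfotransferase, with 0.739. Others among the 3 nearest were low or opposite at 5 weeks: Sgcd for Mmp15 (0.982 at 2 weeks, 0.020 at 5 weeks), Gda for Timp3 (0.963 and 0.160), Fam117b for Timp4 (0.902 and 0.211) and Wipf3 for Timp4 (0.898 and -0.494).

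Of the 4 inhibitor genes, 3 lie inside the spans of synapsin genes on the opposite strand, and the strand setting of the counting is not stated in those sources, so reads of such partners may not be told apart. Timp3 lies inside Syn3 and shares 1733 of its 8144 exon bases (21.3%) with it. Timp4 lies inside Syn2 and Gm17482, sharing 90 of its 5894 exon bases (1.53%) with Syn2 and 0 with Gm17482, and Timp1 lies inside Syn1 with 0 shared. Timp2 overlaps Cep295nl on its own strand with 0 shared exon bases. The TPM of Timp3 was 27.9 to 93.4 times that of Syn3, whose values lay at 0.861 to 4.83 TPM, and both moved together (r = 0.907 over the 15 libraries of 2 weeks, 0.793 over the 7 of 5 weeks). Timp3 moved with Syn2, which it does not overlap, about as closely (0.902 and 0.846). Timp4 and Syn2, which do overlap, gave 0.506 and -0.035. The part of shared reads was not tested.

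Among the 18 other MMP genes, 7 were tested in each of the 7 comparisons and 0 passed. The most abundant was Mmp12, the macrophage elastase, by its mean over the 2-week libraries. At 2 weeks TAC it held 39.1, 20.4 and 24.4 TPM in VCP TG, against 10.7, 10.6, 14.4 and 12.7 TPM in WT (1.10 ± 0.32, limma adjusted p = 0.159). These values did not overlap, as was so for 21.8% of all genes tested. In VCP TG sham hearts Mmp12 held 7.45 to 24.4 TPM, so that TAC and sham libraries of VCP TG overlapped (1.07 ± 0.32, adjusted p = 0.132). Its order in the 3 VCP TG libraries at 2 weeks TAC was that of the receptor genes, whose mean there was 0.841, 0.311 and 0.450 TPM, while the macrophage markers summed to 56.0 to 69.4 TPM in VCP TG and 53.3 to 128 TPM in WT. The part of the receptor level was not tested.

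Genes that activate, bind or clear MMPs, 20 in all with 18 tested, gave 0 calls in each comparison. Among them Thbs1, thrombospondin 1, which binds MMP2 and MMP9, stood at -2.55 ± 1.01 for TAC against sham in WT hearts (limma adjusted p = 0.393), with 1.34 to 5.90 TPM after TAC and 2.24, 20.3, 30.9 and 75.0 TPM after sham surgery. Lcn2, the lipocalin that forms a complex with MMP9, stood at -1.55 ± 0.75 for VCP TG against WT in sham hearts (adjusted p = 1), with 1.499 to 2.62 TPM in VCP TG and 1.28, 2.45, 46.2 and 17.5 TPM in WT. The high sham values of Lcn2 were those of the libraries rich in neutrophil transcripts, WT replicates 3 and 4.

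The ADAM and ADAMTS genes, relatives of the MMPs of which TIMP3 inhibits some, gave 0 calls of 15 to 20 tested. Adamts9 stood at -1.30 ± 0.48 (limma adjusted p = 0.365) and Adamts1 at -1.24 ± 0.64 for TAC against sham in WT hearts, and Adamts1 at -1.67 ± 0.69 (adjusted p = 0.441) for TAC against sham in VCP TG hearts. Adamts7 stood at 0.98 ± 0.45 (adjusted p = 0.494) for VCP TG against WT at 2 weeks TAC and at 0.78 ± 0.29 (adjusted p = 0.904) at 5 weeks TAC. At 2 weeks TAC its groups did not overlap. Of the 17 ADAM and ADAMTS genes tested there, 2 parted the groups, against 21.8% of all genes.

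The matrix substrates, 23 genes of collagens, laminins and other matrix proteins, gave 0 calls of 21 to 23 tested. At 5 weeks TAC 20 of 21 were lower in VCP TG than in WT, with a median of -0.43 against 0.03 for all genes, where 45.7% of all genes were lower, and 20 of 21 were also lower with quantile normalization. Of the markers, 5 of 6 for fibroblasts (median -0.25) and 6 of 6 for macrophages (median -0.35) were lower there as well, and their part was not tested. Without the 3 libraries whose Vcp goes against the label, only VCP TG replicates 1 and 2 and WT replicates 1 and 4 remained. In these 18 of 21 matrix genes were lower in VCP TG (median -0.22 against 0.12), where 34.4% of all genes were. Postn, periostin, made by activated fibroblasts, stood at -1.33 ± 0.55 with 21.03, 33.1 and 8.37 TPM in VCP TG and 53.1, 99.7, 34.3 and 27.3 TPM in WT, and Col1a1, a chain of type I collagen, at -0.84 ± 0.34 (limma adjusted p = 0.904 for both). The lowest and the highest Postn value came from libraries whose Vcp goes against the label, VCP TG replicate 3 and WT replicate 2. At 2 weeks TAC 16 of 21 were lower in VCP TG, with a median of -0.10 against 0.16, and 18 of 21 with quantile normalization, but without the libraries whose Vcp goes against the label 15 of 21 were higher (median 0.16 against 0.19). For TAC against sham in WT hearts Col4a2, a chain of the basement membrane collagen, stood at -1.01 ± 0.37 (adjusted p = 0.365). Its groups did not overlap, as was so for 16.2% of all genes tested.

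The list of cytokines, AP-1 factors and other regulators linked to MMP genes, such as Ets1, Rela and Stat3, held 20 genes. With 18 or 19 tested, it gave 0 calls as well. For TAC against sham in WT hearts 18 of 19 were lower (median -0.66 against -0.13 for all genes), where 64.2% of all genes were. In VCP TG hearts 15 of 19 were lower (median -0.33 against 0.02), where 52.4% of all genes were higher. With quantile normalization 17 of 19 were lower in WT hearts and 15 of 19 in VCP TG hearts. The neutrophil markers were lower after TAC too, 4 of 4 tested in WT hearts (median -1.22) and 3 of 4 in VCP TG hearts (median -0.41), and their part was not tested. Without the libraries rich in neutrophil transcripts 16 of 17 genes of the list were lower in WT hearts (median -0.51 against -0.25). In VCP TG hearts 11 of 17 were lower (median -0.08 against 0.16). Fos, a subunit of AP-1, stood at -3.47 ± 0.88 in VCP TG hearts (limma adjusted p = 0.103), with 0.794 to 0.868 TPM after TAC and 12.3, 9.34, 146 and 7.15 TPM after sham surgery. Junb stood at -2.29 ± 0.82 in VCP TG hearts (adjusted p = 0.312) and at -1.72 ± 0.76 in WT hearts (adjusted p = 0.423). The highest Fos value among the 15 libraries of the 2-week table stood in VCP TG sham replicate 3, which also held the highest Timp3.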

How the data were processed

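Transcripts of left ventricular tissue were measured in 22 libraries (polyadenylated RNA, stranded kit, per the labels' protocols). Values are TPM as deposited by the authors, in 1 table for 2 weeks and 1 for 5 weeks, and each column sums to 1000000. The submitters' processing notes name Trimmomatic 0.35, kallisto 0.43.1, STAR 2.5.4b, DESeq2 and GRCm38 without roles. Which of these made the TPM, and whether strand was used, are not given in the sources used here. The files hold no counts, so depth is unknown and no counting interval was computed. Of 30735 gene IDs, 30074 matched GENCODE M21 names and 661 did not. The unmatched IDs took 1.9% to 25.9% of the TPM of a library, and their part in the levels was not tested. No 2 libraries held identical values.

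Groups were taken from the sample labels. Genes that reached 1 TPM in 3 or more libraries entered the tests as log2(TPM + 1) with limma 3.58.1 (R 4.3.3; trend and robust moderation), in 1 fit of 15 libraries and 4 groups at 2 weeks (15540 genes), 1 of 7 libraries at 5 weeks (13986 genes) and 1 of all 22 (16347 genes). P-values were adjusted by Benjamini-Hochberg over all genes of a fit. The test was tested on simulated data. The 9 genes, the lists and the libraries left out were chosen with earlier results of these data known. The text draws its named list genes from the 2 of each list with the largest absolute log2 fold change among those averaging 5 TPM or more, and the genes like a member from the 3 highest correlations. Sham libraries of the same replicate number deviated weakly together (correlations 0.107, 0.26, 0.176 and 0.133). In the other comparisons the correlations ran from -0.225 to 0.161. The labels do not say that the numbers pair libraries, so a pairing in sham rests on the data alone. Alternatives changed the pseudocount (0.1), the filter, the scaling, the moderation, the block and the libraries. Leaving out libraries whose 6 neutrophil markers sum to over 10 TPM was added after seeing the data. Promoters are from RefSeq (GRCm38.p6); 7 of the 9 genes had an entry, and Mmp2 and Mmp9 did not.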

Additional observations from a re-analysis of the deposited data

Results flagged for a closer look

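In 36 sets of values, each 1 gene in 1 group of 4 libraries, 3 held a library far from the other 3 by Dixon's test, and chance gives about 1 in 20. Timp1 stood at 9.58 TPM in replicate 1 labelled WT 2 weeks TAC, against 0.533 to 1.70 TPM in the other 3 of that group. This library also had Vcp against its label and was rich in atrial transcripts. Mmp9 stood at 1.01 TPM in WT sham replicate 4, against 0.472 to 0.516 TPM in the other 3. Its neutrophil markers summed to 41.9 TPM, but those of WT sham replicate 3 summed to 72.6 TPM. Mmp14 stood at 1.91 TPM in WT 5 weeks TAC replicate 4, against 3.96 to 4.30 TPM in the other 3.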

How the results depend on the processing

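Of the 55 differences of a gene in a comparison, none was called with every setting at its stated value. Among the other alternatives 466 values kept direction and call, 58 values of 30 differences turned sign, and 1 value came to pass, Timp3 for TAC against sham in WT hearts without the libraries rich in atrial transcripts, which makes 1 of 7 called there (8.22% of all genes) against 0. The causes were not tested. With a pseudocount of 0.1, the sign turned in these log2 differences: Mmp9 -0.028 for VCP TG against WT in sham. With quantile normalization, the sign turned in these log2 differences: Mmp9 -0.074 for VCP TG against WT in sham, Timp1 -0.25 and Timp3 -0.021 for TAC against sham in VCP TG, Mmp2 -0.15 and Mmp9 -0.17 for VCP TG against WT at 2 weeks TAC, Mmp2 -0.021, Mmp9 -0.095, Timp1 -0.26 and Timp2 -0.14 for the difference of TAC responses, Mmp14 0.19 for 5 weeks minus 2 weeks. Rescaled to nuclear protein-coding genes, the sign turned in these log2 differences: Mmp9 -0.068 for VCP TG against WT in sham, Timp1 -0.12, Timp2 -0.078 and Timp3 -0.26 for TAC against sham in VCP TG, Mmp2 -0.35, Mmp9 -0.096, Mmp15 -0.18 and Timp2 -0.10 for VCP TG against WT at 2 weeks TAC, Mmp2 -0.064, Mmp9 -0.028, Timp1 -0.14 and Timp2 -0.28 for the difference of TAC responses, Mmp15 -0.083 for VCP TG against WT at 5 weeks TAC, Mmp14 0.18 and Mmp15 0.099 for 5 weeks minus 2 weeks. Without the libraries rich in atrial transcripts, the sign turned in these log2 differences: Mmp15 0.23 for VCP TG against WT in sham, Timp1 -0.57 and Timp2 -0.16 for TAC against sham in WT, Mmp14 0.14 for VCP TG against WT at 2 weeks TAC, Mmp15 -0.15 for the difference of TAC responses. Without the libraries rich in neutrophil transcripts, an alternative chosen after seeing the data, the sign turned in these log2 differences: Timp1 0.17 and Timp2 -0.35 for VCP TG against WT in sham, Timp2 -0.033 for TAC against sham in WT, Mmp2 0.31, Mmp14 0.15 and Mmp15 0.093 for TAC against sham in VCP TG, Timp1 -0.61 for the difference of TAC responses, Mmp14 0.029, Mmp15 -0.26 and Timp2 0.16 for VCP TG against WT at 5 weeks TAC, Mmp14 0.10, Timp1 0.32 and Timp3 0.00062 for 5 weeks minus 2 weeks. Without the libraries with Vcp against the label, the sign turned in these log2 differences: Timp1 -0.57 and Timp2 -0.16 for TAC against sham in WT, Mmp15 0.13 and Timp1 -0.11 for TAC against sham in VCP TG, Mmp14 0.16 and Timp1 0.13 for VCP TG against WT at 2 weeks TAC, Mmp14 0.029, Mmp15 -0.26 and Timp2 0.16 for VCP TG against WT at 5 weeks TAC. With 1 library left out at a time, 455 values kept direction and call and 56 values of 27 differences turned sign; the ranges of those 27 were Mmp2 -0.62 to 0.16, Mmp15 -0.42 to 0.27, Timp1 -0.91 to 0.075 and Timp2 -0.14 to 0.53 for VCP TG against WT in sham, Mmp9 -0.22 to 0.027, Timp1 -0.57 to 0.59 and Timp2 -0.16 to 0.41 for TAC against sham in WT, Mmp2 -0.47 to 0.31, Mmp9 -0.19 to 0.22, Mmp14 -0.30 to 0.15, Mmp15 -0.55 to 0.13, Timp1 -0.31 to 0.35, Timp2 -0.080 to 0.59 and Timp3 -0.44 to 0.69 for TAC against sham in VCP TG, Mmp2 -0.15 to 0.30, Mmp14 -0.28 to 0.16 and Timp1 -0.82 to 0.13 for VCP TG against WT at 2 weeks TAC, Mmp2 -0.14 to 0.65, Mmp9 -0.096 to 0.31, Mmp15 -0.077 to 0.61, Timp1 -0.51 to 0.64 and Timp2 -0.26 to 0.41 for the difference of TAC responses, Mmp15 -0.21 to 0.17, Timp2 -0.47 to 0.038 and Timp3 -0.042 to 0.37 for VCP TG against WT at 5 weeks TAC, Mmp14 -0.26 to 0.18 and Timp1 -0.95 to 0.012 for 5 weeks minus 2 weeks.

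With the replicate block, the sign turned in these log2 differences: Timp3 -0.065 for TAC against sham in VCP TG, Mmp2 -0.10 and Mmp15 -0.021 for VCP TG against WT at 2 weeks TAC, Timp2 -0.075 for the difference of TAC responses, Mmp15 0.20 for 5 weeks minus 2 weeks. The block changed no call of the 9 genes in any comparison: 0 passed with it. In sham, where libraries of the same number deviated weakly together, it left 0 of all genes called. The labels give no more than a number in any comparison. In the other comparisons all genes called were 2 with the block against 0 without it for TAC against sham in WT, 102 against 120 for TAC against sham in VCP TG, 5 against 14 for VCP TG against WT at 2 weeks TAC, 0 against 1 at 5 weeks TAC and 0 against 1 for the difference of TAC responses.

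Over the alternatives the number of all genes called ran from 0 to 2 in sham (0 as stated), 0 to 1202 for TAC against sham in WT (0), 2 to 1846 for TAC against sham in VCP TG (120; 1 to 753 with 1 library left out), 1 to 640 for VCP TG against WT at 2 weeks TAC (14; 1 to 15), 0 to 24 for the difference of TAC responses (1; 0 to 4), 0 to 1 for VCP TG against WT at 5 weeks TAC (1; 0 to 3) and 0 to 6 for 5 weeks minus 2 weeks (1; 1 to 2). Timp3 had the highest group mean in 6 of 6 groups on both scales. Read depth is unknown, so the precision of Mmp3, Mmp9, Timp1 and Timp4, near or under a few TPM, cannot be given.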

Other observations

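The 3 libraries of 5 weeks that were rich in neutrophil transcripts, those labelled VCP TG replicate 3 and WT replicates 2 and 3, were the same 3 whose Vcp went against the label, so leaving out either kind gives the same 4 libraries. Mmp9, which neutrophils are known to store as protein, did not stand highest where their markers did: WT sham replicate 3, with 72.6 TPM of neutrophil markers, held 0.513 TPM of Mmp9, and its highest value (1.88 TPM) was in VCP TG 2 weeks TAC replicate 1, with 6.51 TPM of the markers and the highest receptor mean (0.841 TPM). Mmp8, the neutrophil collagenase, held 0.694 and 0.426 TPM in WT sham replicates 3 and 4 and was listed at 0 in replicates 1 and 2, but it also held 0.676 and 0.397 TPM in VCP TG 2 weeks TAC replicates 1 and 3, where the markers summed to 6.51 and 3.84 TPM.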
